A study of Rattus norvegicus with 4 samples.

Results

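The cytosolic and mitochondrial heat shock proteins followed here are Hsph1, Dnajb1, Dnaja1, Hspa8, Hsp90aa1, Hsp90ab1, Hspb1, Hspa9, Hspd1 and Hspe1. They were taken by name, with every probe set of the Affymetrix RG-U34A rat array that carries 1 of these 10 symbols and no other symbol in the array's annotation. This gave 21 probe sets of 8 genes, among 8740 probe sets in all and 4736 genes with a probe set of their own. Hspa8 and Hsp90aa1 are represented by probe sets shared with another symbol alone, so that they are described apart from the 21. Each of the 8 genes had at least 2 probe sets, which allowed the readings of a gene to be compared with each other.

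The cells were Rat1, immortalized fibroblasts of the rat, and had been stably infected either with a retrovirus for Omomer (Rat1-Omomer cells) or with the empty retrovirus (Rat1-control cells). Omomer is Omomyc, a dominant negative form of the Myc dimerization region, fused to the hormone-binding part of the estrogen receptor, so that 4-OHT switches it on. Both lines received 4-OHT, both were kept for 48 h in 0.1% serum, and RNA was taken at 0 min and at 90 min after the change to 10% serum. This made 4 conditions, Rat1-Omomer and Rat1-control cells at 0 min and at 90 min, with 1 array each. How long 4-OHT was present is not settled, since the labels place it in the starvation medium and the methods begin it 4 h ahead of serum. A label field on transfection names the other vector for Rat1-Omomer cells at 0 min and for Rat1-control cells at 90 min, and the titles, sources and descriptions were followed. With 1 array per condition no spread between cultures can be given, and no p was computed for any difference.

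The values are average differences, which is how much brighter the probes matched to a message were than their mismatched partners. The scale is linear, and noise can give negative readings. The floor under which a reading was treated as noise was 1048, or 2 SDs of the noise estimated from the negative values. A fold is the ratio of 2 readings with those under the floor set to it, and it is a bound where 1 of them was under the floor. As a measure of how far readings of the same RNA can lie apart, the SD of log2 folds among probe sets of the same gene was taken from 890 probe sets of 389 genes. This within-gene SD was 0.73 for Rat1-Omomer over Rat1-control cells at 90 min, but 0.29 at 0 min and 0.31 for the control cells over time. The Rat1-Omomer 90 min array therefore gave less even readings within a gene than the other arrays. Its bright end was also stretched, with a 99th percentile of 72057, against 54800.4 on the Rat1-control 90 min array, and 43961 on the Rat1-Omomer and 45776 on the Rat1-control 0 min array. On the same array, probe sets of 5 EST series (IDs starting rc_AA79, rc_AA80, rc_AA85, rc_AA87 or rc_AA89) read low, where 28.9% were lower by 3-fold or more relative to Rat1-control cells at 0 min, against 4.36% of the other probe sets. Of 13 fibroblast markers on the array, 10 were above the floor in all 4 conditions, Col1a1, Col3a1 and Vim among them, while Dcn, Lum and Pdgfrb were under it in all 4. All 5 epithelial markers with a probe set were under the floor, and of the other cell types Cd14 and Snap25 were above it.

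Heat shock proteins are chaperones, which hold, fold or take apart other proteins. In the cytosol, Hspa8 is the constitutive HSP70, Dnajb1 and Dnaja1 are J-domain partners that hand it clients and stimulate its ATPase, and Hsph1 is an HSP110 that exchanges its nucleotide. Hsp90aa1 and Hsp90ab1 are the stress-inducible and the constitutive HSP90, and Hspb1 is a small heat shock protein that binds unfolding proteins without ATP. In mitochondria, Hspa9 is the HSP70 that pulls in and folds imported proteins, Hspd1 forms the HSP60 barrel and Hspe1 the HSP10 lid that closes it. Heat shock factors drive many of these genes through repeats of the unit GAA and its complement TTC in their promoters, and Myc with its partner Max binds the E-box CACGTG. In fibroblasts the constitutive members are among the abundant messages.

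The promoter letters of the family were read from RefSeq windows of 300 bases (250 before to 50 after the annotated start, build GRCr8), which were given for 9 of the 10 genes, with Hsp90aa1 the exception. The forms searched, on both strands, were a pair of heat shock units (TTCNNGAA or GAANNTTC), the 3-unit form (TTCNNGAANNTTC or GAANNTTCNNGAA, in which each match also holds overlapping pairs) and the E-box CACGTG. The pair was found in 8 of the 9 windows, all but that of Hsp90ab1, and in 15.9% of 33469 rat promoter windows. The 3-unit form was found in 5, Hsph1, Dnaja1, Hspa8, Hspd1 and Hspe1, and in 0.798% of all windows. The E-box was found in 2, Hsph1 at -70 and Hspa9 at 3 from the start, and in 6.42% of all windows. These are matches of letters, not measured binding. The annotated bounds of Hspa9, 26810004 to 26832958, reach past its whole window, 26828349 to 26828648. Those of Hsp90ab1, 22930249 to 22935929, begin inside its window, before the start that was used. For these genes the letters found therefore depend on which annotated start is taken. In the same build Hsph1 and Hspb1 lie on chromosome 12, Dnajb1 on 19, Dnaja1 on 5, Hspa8 on 8, Hsp90aa1 on 6, Hsp90ab1 on 9 and Hspa9 on 18.

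Hspd1 and Hspe1 lie head to head on chromosome 9. Hspd1 starts at position 64084037 on the minus strand and Hspe1 at 64084327 on the plus strand, 290 bases apart, so that 211 bases of their promoter windows are the same stretch of DNA. The annotated bounds of Hspd1, 64073610 to 64084332, reach over the printed stretch of Hspe1 and past the Hspe1 start. The distance, the overlap and the Hspd1 positions therefore depend on which annotated start of Hspd1 is taken. The other 3 stretches lie just before the start of their gene. The 3 overlapping pairs run from -65 relative to the Hspe1 start and from -242 relative to that of Hspd1, and it is printed first because both genes of the HSP60 and HSP10 pair share it. Stretches of Hsph1, Dnajb1 and Hspb1 follow, since these genes carry the other differences described later. Capitals mark the heat shock units and the E-box, and each line runs 5′ to 3′ along the strand of the gene.
Hspe1, chr9:64084256-64084285, plus strand: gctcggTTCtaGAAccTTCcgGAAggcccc
Hsph1, chr12:10427283-10427352, plus strand: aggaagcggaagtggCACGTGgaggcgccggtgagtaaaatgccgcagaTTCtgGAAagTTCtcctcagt
Dnajb1, chr19:41431142-41431201, minus strand: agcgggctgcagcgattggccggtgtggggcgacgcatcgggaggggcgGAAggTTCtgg
Hspb1, chr12:26432382-26432441, minus strand: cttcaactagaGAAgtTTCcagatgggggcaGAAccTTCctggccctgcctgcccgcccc

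**Figure D1:**
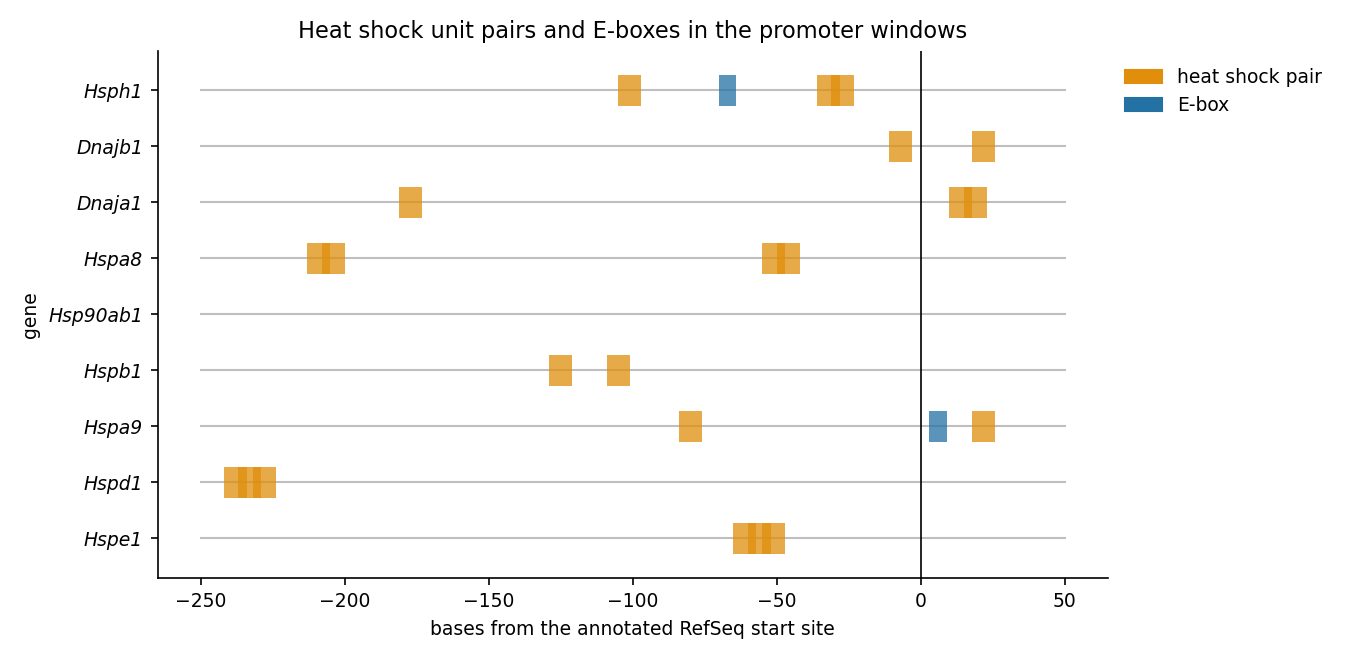
Pairs of heat shock units (orange) and E-boxes (blue) in the promoter windows of 9 heat shock protein genes. The x axis is the distance in bases from the annotated RefSeq start, and overlapping orange boxes are runs of 3 or more units. Of the 9 windows, 8 hold a pair and 2 hold an E-box, and the run of Hspe1 near -65 is the same DNA as the run of Hspd1 near -242.

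Of the 21 probe sets, 19 were above the floor on all 4 arrays, 1 on some of them and 1 on none. The probe set under the floor throughout was rc_AA944973_at of Hspa9, which read 401 at 90 min and 532 at 0 min in Rat1-Omomer cells, and 440 at 90 min and 84 at 0 min in Rat1-control cells. The other 20 gave a fold in every comparison. Of the 21, 12 had a mean of at least 10000, which puts most of the family among the brighter probe sets of the array.

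**Figure D2:**
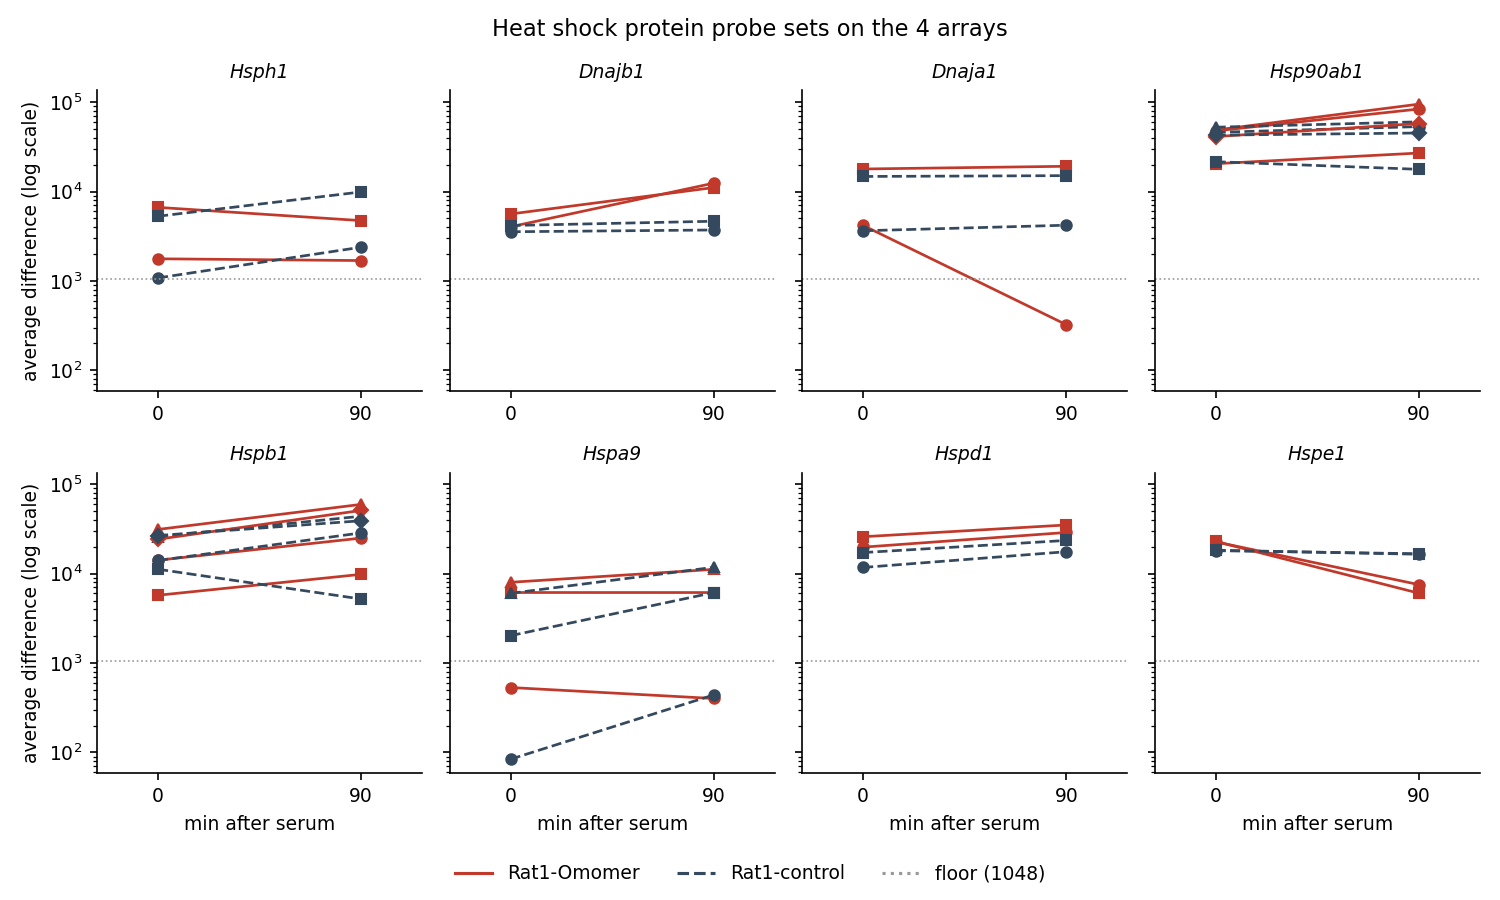
Average differences of the 21 heat shock protein probe sets (y axis, log scale, intensity) at 0 and 90 min after serum (x axis), 1 panel per gene, with Rat1-Omomer cells as solid red and Rat1-control cells as dashed dark lines and a marker shape for each probe set. The dotted line is the floor of 1048. At 90 min the Rat1-Omomer lines lie above the Rat1-control lines for Dnajb1 and Hspd1 and below them for Hsph1 and Hspe1, while the Dnaja1 lines part from each other.

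The cell lines were set side by side at 90 min. This ratio also carries any difference between the lines at 0 min, so that it is not a measure of the serum response alone. In Rat1-Omomer over Rat1-control cells, 1 of the 20 passed 3-fold upward (2.22% of all probe sets did) and 1 passed it downward (8.57% of all). At 2-fold, 2 were higher (10.1% of all) and 4 lower (15.7% of all). Dnajb1 made up both of the 2-fold higher readings, and both probe sets of Hspe1, 1 of Hsph1 and 1 of Dnaja1 made up the lower ones. At any fold, 13 of the 20 were higher and 7 lower, and 58.2% of all probe sets were higher. The median log2 fold of the 20 was 0.37, against 0.18 over all probe sets and 0.33 over the 743 with a mean of at least 10000, so that as a group the members lay near other bright probe sets. In bulk RNA, fewer cells that carry a message and less of it per cell cannot be told apart.

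Over Rat1-control cells at 0 min, the reference that the study used, Rat1-Omomer cells at 90 min had 2 of the 20 past 3-fold upward (2.8% of all) and 2 past it downward (9.95% of all). The upward readings were 1 each of Dnajb1 and Hspa9, and the downward ones 1 each of Hspe1 and Dnaja1. At 2-fold, 6 were higher (10.1% of all) and 3 lower (18.2% of all), and at any fold 15 were higher and 5 lower (54.4% of all were higher). The 6 were both probe sets of Dnajb1 and of Hspd1 and 1 each of Hspa9 and Hspb1. Rat1-control cells at 90 min over the same array had 1 past 3-fold upward, of Hspa9 (1.93% of all), and 0 downward (1.81% of all). At 2-fold 3 were higher (5.45% of all) and 1 lower (7.23% of all), and at any fold 16 were higher and 4 lower (44.0% of all were higher). The median log2 fold was 0.84 in Rat1-Omomer cells, against 0.10 over all probe sets and 0.44 over the bright ones, and 0.21 in Rat1-control cells, against -0.07 over all and 0.14 over the bright ones. Both comparisons share the Rat1-control 0 min array. Within Rat1-Omomer cells, 90 min over 0 min, 1 passed 3-fold upward (2.9% of all) and 3 downward (9.65% of all). At 2-fold 2 were higher (9.19% of all) and 3 lower (17.5% of all), and at any fold 14 were higher and 6 lower (54.0% of all were higher), with a median log2 fold of 0.48 against 0.09 over all.

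**Figure D3:**
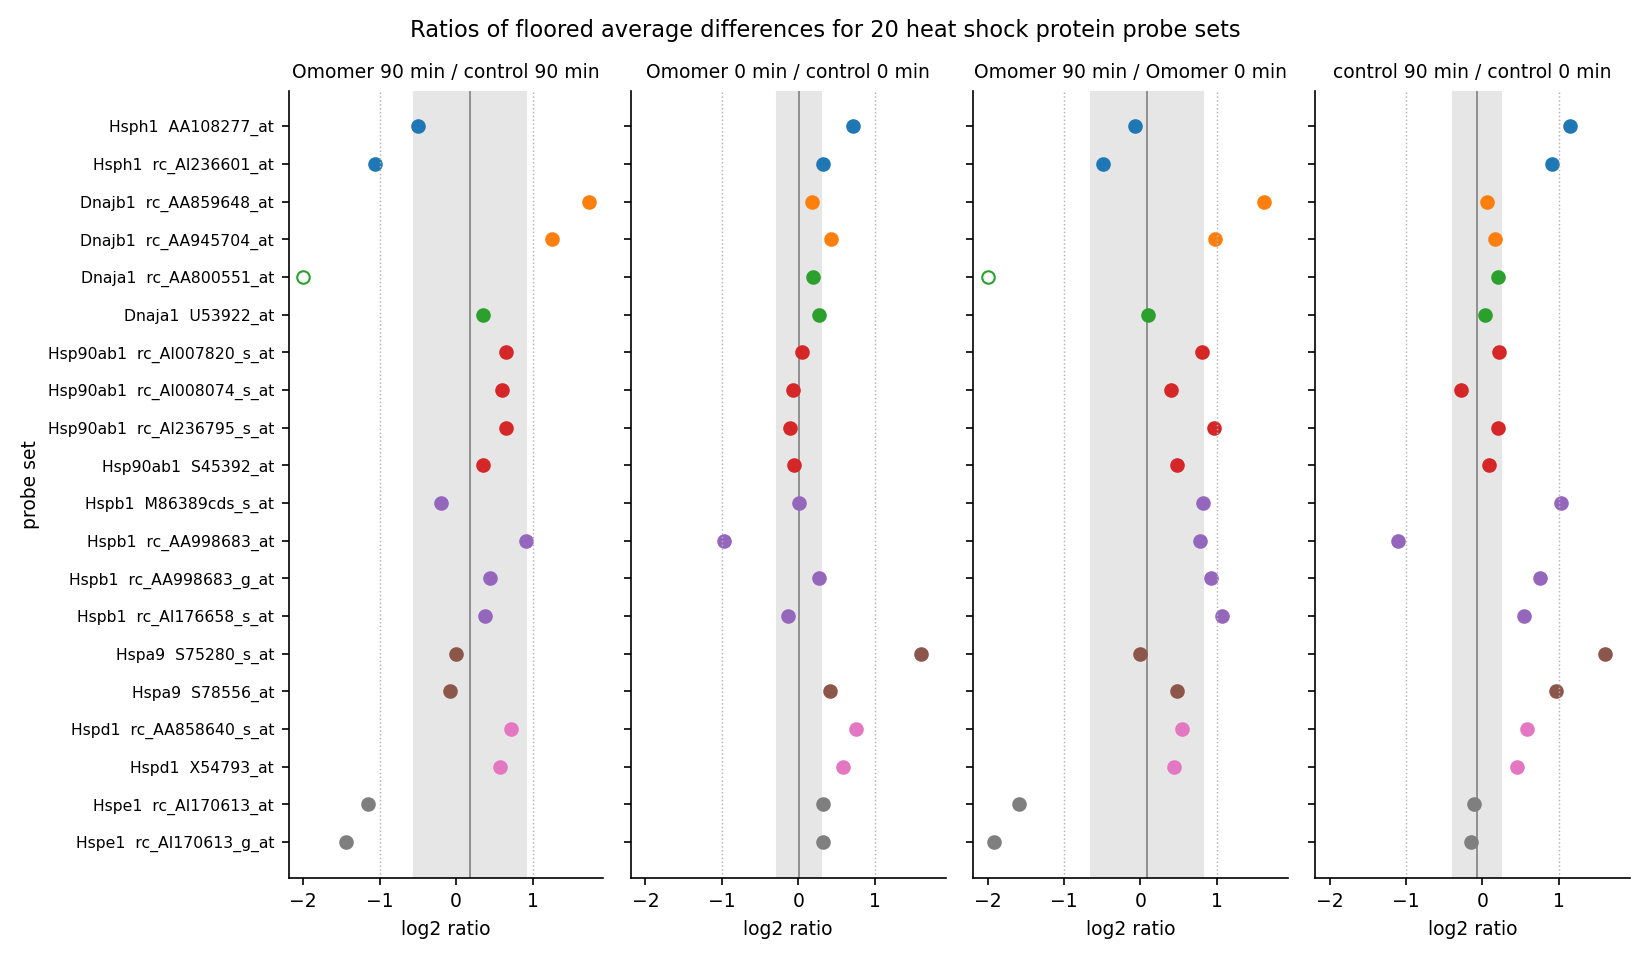
Log2 ratios (x axis) of the 20 heat shock protein probe sets with a fold (y axis), 1 panel for each of 4 comparisons, with an open circle for a bound. The grey line is the median of all probe sets, the grey band is that median plus and minus the within-gene SD, and the dotted lines are 2-fold. In Rat1-Omomer over Rat1-control cells at 90 min Dnajb1 lies right of the band and Hspe1 left of it. At 0 min most of the 20 lie between the dotted lines, more of them right of 0 than left.

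Dnajb1, the HSP40 that recruits HSP70 to misfolded proteins, was the member with the highest reading in Rat1-Omomer cells at 90 min relative to Rat1-control cells. Its probe set rc_AA859648_at read 12409 at 90 min and 4036 at 0 min in Rat1-Omomer cells, against 3714 at 90 min and 3549 at 0 min in Rat1-control cells. Its second probe set, rc_AA945704_at, read 11083 at 90 min and 5608 at 0 min in Rat1-Omomer cells, against 4653 at 90 min and 4167 at 0 min in Rat1-control cells. On both, the Rat1-Omomer 90 min reading stood alone and the other 3 were close together. Rat1-Omomer over Rat1-control cells at 90 min came to 3.34-fold and 2.38-fold higher, or 1.74 and 1.25 on the log2 scale, each above the within-gene SD of 0.73. In Rat1-control cells the 90 min readings were 1.05-fold and 1.12-fold those at 0 min. The first probe set belongs to the 5 EST series, of which 1.01% passed 3-fold upward in this comparison, and the second does not.

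The inducible HSP70 genes Hspa1a and Hspa1b, which Dnajb1 works with under stress and which were not among the 10 genes, have 4 probe sets shared between them, of which L16764_s_at alone read above 0. It read 8286 at 90 min and 2324 at 0 min in Rat1-Omomer cells, against 2967 at 90 min and 2393 at 0 min in Rat1-control cells. This is the same arrangement as for Dnajb1, with 1 reading apart from 3 that are close together. At 90 min it was 2.79-fold higher in Rat1-Omomer than in Rat1-control cells, and 3.57-fold higher than before serum within the Rat1-Omomer line. It was named after its values had been seen.

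Dnaja1, another J-domain partner of HSP70, gave 2 probe sets that parted company on the Rat1-Omomer 90 min array. On rc_AA800551_at the readings were 324 at 90 min and 4172 at 0 min in Rat1-Omomer cells, against 4201 at 90 min and 3640 at 0 min in Rat1-control cells. On U53922_at they were 19162 at 90 min and 17872 at 0 min in Rat1-Omomer cells, against 15056 at 90 min and 14742 at 0 min in Rat1-control cells. The first is at least 4.01-fold lower in Rat1-Omomer than in Rat1-control cells at 90 min, a bound, whereas the second is 1.27-fold higher. On the other 3 arrays both probe sets moved little, by 1.15-fold and 1.02-fold over time in Rat1-control cells. The probe set that read low is in the 5 EST series, of which 27.2% passed 3-fold downward in the same comparison, and its part in the result was not tested. With a floor of 2096 the log2 fold of Rat1-Omomer cells at 90 min over Rat1-control cells at 0 min was -0.80 on this probe set, in place of -1.80. The readings of Dnaja1 have no common direction.

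Hsph1, the HSP110 that acts as nucleotide exchange factor for HSP70, was the cytosolic member in which the control cells had the higher readings at 90 min. Its probe set rc_AI236601_at read 4727 at 90 min and 6651 at 0 min in Rat1-Omomer cells, against 9901 at 90 min and 5291 at 0 min in Rat1-control cells. The dimmer AA108277_at read 1690 at 90 min and 1769 at 0 min in Rat1-Omomer cells, against 2385 at 90 min and 1081 at 0 min in Rat1-control cells. Over time the control cells were 1.87-fold and 2.21-fold higher at 90 min, above the within-gene SD, while in Rat1-Omomer cells neither probe set was higher at 90 min, although AA108277_at stood at 0.02 with median scaling and 0.24 with quantile normalization on the log2 scale, in place of -0.07. At 90 min Rat1-Omomer cells were 2.09-fold and 1.41-fold lower than Rat1-control cells, or -1.07 and -0.50 on the log2 scale, of which the second is within the within-gene SD of 0.73. At 0 min they were 1.26-fold and 1.64-fold higher, and AA108277_at stood just above the floor in Rat1-control cells. Hsph1 and Dnajb1, which serve the same HSP70 cycle, thus lay on opposite sides in Rat1-Omomer over Rat1-control cells at 90 min on all 4 of their probe sets.

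The constitutive HSP90, Hsp90ab1, was read by 4 probe sets, 3 of which have the suffix s, which marks probes that match several similar sequences. The brightest, rc_AI236795_s_at, read 94925 at 90 min and 48769 at 0 min in Rat1-Omomer cells, against 60210 at 90 min and 52406 at 0 min in Rat1-control cells. The dimmest, rc_AI008074_s_at, read 26944 at 90 min and 20482 at 0 min in Rat1-Omomer cells, against 17718 at 90 min and 21564 at 0 min in Rat1-control cells. Of the others, rc_AI007820_s_at read 83727 at 90 min and 47669 at 0 min in Rat1-Omomer cells, against 53238 at 90 min and 45929 at 0 min in Rat1-control cells. On each of the 4 the Rat1-Omomer 90 min array had the highest reading as deposited. On S45392_at the readings were 57659 at 90 min and 41184 at 0 min in Rat1-Omomer cells, against 45140 at 90 min and 42730 at 0 min in Rat1-control cells. Rat1-Omomer cells were between 1.28-fold and 1.58-fold higher than Rat1-control cells at 90 min, within the within-gene SD of 0.73 on the log2 scale. These readings lie in the stretched bright end of that array. With quantile normalization, which gives the arrays the same distribution, the log2 folds of Rat1-Omomer cells at 90 min over Rat1-control cells at 0 min lay between -0.11 and 0.16, against 0.32 and 0.87 as deposited, and those of Rat1-Omomer over Rat1-control cells at 90 min between 0.09 and 0.44. In Rat1-control cells over time, 3 of the 4 were higher and 1 lower as deposited, and all 4 were lower, between -0.40 and -0.05, with quantile normalization.

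Hspa8 and Hsp90aa1, the constitutive HSP70 and the inducible HSP90, were read by probe sets shared with Haus8l2 and with the pseudogene Hsp90aa1-ps17, so that the source of the signal cannot be told apart. For Hspa8, M11942_s_at read 94407 at 90 min and 48754 at 0 min in Rat1-Omomer cells, against 59821 at 90 min and 50007 at 0 min in Rat1-control cells. The other, rc_AI234604_s_at, read 82408 at 90 min and 50307 at 0 min in Rat1-Omomer cells, against 68674 at 90 min and 60107 at 0 min in Rat1-control cells. Both stood close to the brightest Hsp90ab1 probe set in level and had the same order of the arrays, and with quantile normalization their log2 folds of Rat1-Omomer cells at 90 min over Rat1-control cells at 0 min were -0.27 and 0.20, against 0.46 and 0.92 as deposited. For Hsp90aa1, rc_AI176546_at read 63910 at 90 min and 37972 at 0 min in Rat1-Omomer cells, against 49959 at 90 min and 32575 at 0 min in Rat1-control cells. The dimmer rc_AA944397_at read 25207 at 90 min and 14176 at 0 min in Rat1-Omomer cells, against 16998 at 90 min and 11720 at 0 min in Rat1-control cells. Hsp90aa1 was higher at 90 min than at 0 min in both lines, by 1.45-fold and 1.53-fold in Rat1-control cells, and under quantile normalization it stayed higher there, at 0.43 and 0.53 on the log2 scale.

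**Figure D4:**
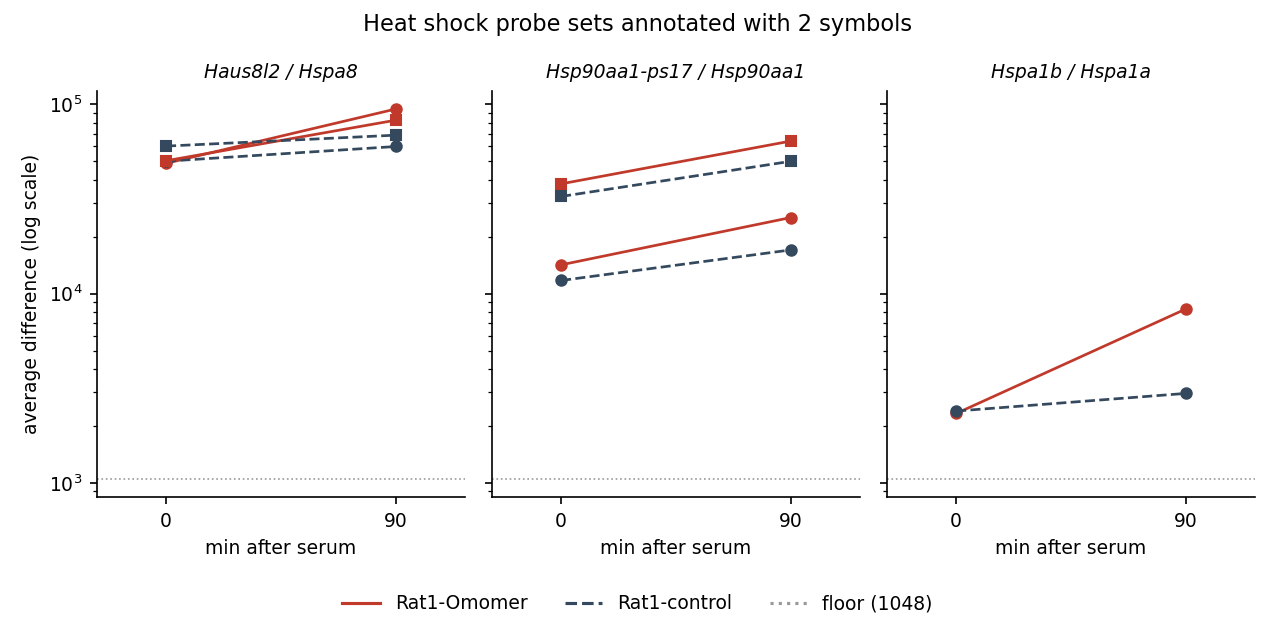
Average differences (y axis, log scale, intensity) at 0 and 90 min after serum (x axis) of the probe sets shared by Hspa8 and Haus8l2, by Hsp90aa1 and Hsp90aa1-ps17, and by Hspa1a and Hspa1b, with Rat1-Omomer cells in solid red and Rat1-control cells in dashed dark lines. For Hspa1a and Hspa1b the Rat1-Omomer 90 min reading of 8286 stands apart from the other 3, which lie between 2324 and 2967.

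Hspb1, the small heat shock protein that also binds actin filaments, was higher at 90 min in both lines on 3 of its 4 probe sets. On rc_AA998683_g_at the readings were 59499 at 90 min and 31220 at 0 min in Rat1-Omomer cells, against 43853 at 90 min and 25943 at 0 min in Rat1-control cells. On rc_AI176658_s_at they were 50928 at 90 min and 24238 at 0 min in Rat1-Omomer cells, against 39032 at 90 min and 26684 at 0 min in Rat1-control cells. On M86389cds_s_at they were 24971 at 90 min and 14138 at 0 min in Rat1-Omomer cells, against 28548 at 90 min and 14028 at 0 min in Rat1-control cells. These 3 were 1.46-fold to 2.04-fold higher over time in Rat1-control cells, and in Rat1-Omomer over Rat1-control cells at 90 min they went either way, at -0.19 on M86389cds_s_at, 0.38 on rc_AI176658_s_at and 0.44 on rc_AA998683_g_at on the log2 scale. The other, rc_AA998683_at, read 9817 at 90 min and 5729 at 0 min in Rat1-Omomer cells, against 5195 at 90 min and 11187 at 0 min in Rat1-control cells. It comes from the same EST as rc_AA998683_g_at, and in Rat1-control cells it was 2.15-fold lower at 90 min where that probe set was 1.69-fold higher.

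In mitochondria, Hspa9, the HSP70 of the matrix, had nearly the same level in both lines at 90 min. Its probe set S78556_at read 11157 at 90 min and 7998 at 0 min in Rat1-Omomer cells, against 11775 at 90 min and 6017 at 0 min in Rat1-control cells. On S75280_s_at the readings were 6141 at 90 min and 6147 at 0 min in Rat1-Omomer cells, against 6136 at 90 min and 2023 at 0 min in Rat1-control cells. Over time the control cells were 3.03-fold higher on S75280_s_at and 1.96-fold higher on S78556_at. The Rat1-control 0 min array had the lowest reading on both, and on S75280_s_at it was the only array that differed. Rat1-Omomer cells were thus 3.04-fold and 1.33-fold higher than Rat1-control cells at 0 min, where S75280_s_at was the 1 member of the 20 past 3-fold (0.251% of all). The probe sets of Hspa9 did not give the same size of difference, and the reading of 2023 on 1 array decides the 3-fold value, which fell under 3-fold with a floor of 2096.

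The HSP60 and HSP10 genes, whose products work as 1 machine and whose promoters overlap, parted on the Rat1-Omomer 90 min array. Hspd1 had its highest reading there. On X54793_at the readings were 35007 at 90 min and 25860 at 0 min in Rat1-Omomer cells, against 23503 at 90 min and 17193 at 0 min in Rat1-control cells. On rc_AA858640_s_at they were 28852 at 90 min and 19773 at 0 min in Rat1-Omomer cells, against 17584 at 90 min and 11720 at 0 min in Rat1-control cells. The order of the arrays was the same on both probe sets, with Rat1-Omomer cells higher at either time and 90 min higher than 0 min in either line. Rat1-Omomer over Rat1-control cells came to 1.49-fold and 1.64-fold higher at 90 min and 1.50-fold and 1.69-fold higher at 0 min. At 0 min these are 0.59 and 0.75 on the log2 scale, above the within-gene SD of 0.29, and at 90 min they are 0.57 and 0.71, within that of 0.73. The probe set rc_AA858640_s_at belongs to the 5 EST series and read high on the array on which many of that series read low.

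Hspe1 had its lowest reading on the same array. On rc_AI170613_at the readings were 7533 at 90 min and 22677 at 0 min in Rat1-Omomer cells, against 16683 at 90 min and 18055 at 0 min in Rat1-control cells. On rc_AI170613_g_at they were 6041 at 90 min and 22888 at 0 min in Rat1-Omomer cells, against 16463 at 90 min and 18283 at 0 min in Rat1-control cells. At 0 min Hspe1 stood 1.26-fold and 1.25-fold higher in Rat1-Omomer than in Rat1-control cells, the same side as Hspd1. At 90 min it was 2.21-fold and 2.73-fold lower in Rat1-Omomer than in Rat1-control cells, or -1.15 and -1.45 on the log2 scale, and within Rat1-Omomer cells it was 3.01-fold and 3.79-fold lower at 90 min than at 0 min. In Rat1-control cells it was 1.08-fold and 1.11-fold lower at 90 min. Both probe sets come from the same EST and are not independent readings of the gene. Their IDs start with rc_AI17, outside the 5 EST series. Of 94 probe sets with such IDs, 14.9% passed 2-fold downward and 11.7% upward in Rat1-Omomer over Rat1-control cells at 90 min, against 7.15% and 11.3% of the 2379 whose IDs do not start with rc_. Over Rat1-control cells at 0 min, the shares for Rat1-Omomer cells at 90 min were 16.2% either way, against 8.65% downward and 11.7% upward. The part of this ID group in the Hspe1 readings was not tested. Under quantile normalization the gap between the HSP60 and HSP10 genes remained, at 0.41 and 0.57 for Hspd1 and -1.38 and -1.11 for Hspe1 in Rat1-Omomer over Rat1-control cells at 90 min.

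**Figure D5:**
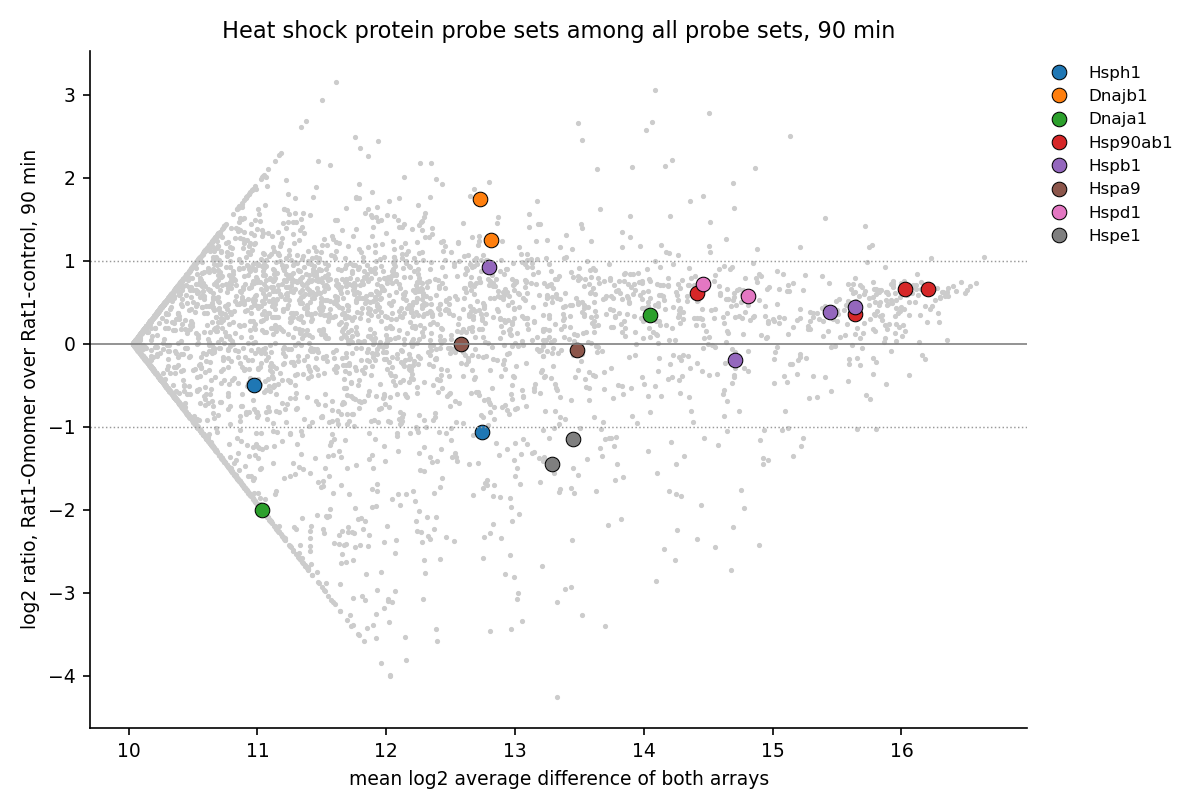
Log2 ratio of Rat1-Omomer over Rat1-control cells at 90 min (y axis) against the mean log2 average difference of both arrays (x axis), with heat shock protein probe sets in colour over all probe sets in grey. Dotted lines are 2-fold, and points on the slanted edges have 1 reading under the floor. Most Hsp90ab1 readings and the brightest of Hspb1 lie in the bright tail, where most probe sets are above 0, whereas Dnajb1 (1.25 and 1.74) and Hspe1 (-1.45 and -1.15) lie left of that tail on either side of 0.

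At 0 min, before serum, most members differed by less than 2-fold between the lines. Of the 20, 15 were higher and 5 lower in Rat1-Omomer than in Rat1-control cells (51.7% of all probe sets were higher). The median log2 fold was 0.27, against 0.01 over all and -0.01 over the bright ones. The within-gene SD of 0.29 is the spread of single probe sets, not of a median. Only S75280_s_at of Hspa9 passed 2-fold upward (1.41% of all), and 0 passed 2-fold (1.71% of all) or 3-fold (0.503% of all) downward, rc_AA998683_at of Hspb1 being nearest at 1.95-fold lower. Both probe sets of Hsph1, Dnajb1, Dnaja1, Hspa9, Hspd1 and Hspe1 that gave a fold were higher, while Hsp90ab1 and Hspb1 had probe sets on either side. The arrays were 1 per line, so that a difference between the lines cannot be told apart from a difference between the arrays.

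Among the 19 members that no array put under the floor, the probe set with the widest range was rc_AI170613_g_at of Hspe1, at 1.92 on the log2 scale. The range of rc_AA800551_at of Dnaja1, which was under the floor on 1 array, was wider, since its extremes lay at least 4.01-fold apart. Among 1445 probe sets of other genes that were above the floor throughout and averaged 3 or more floors, the 3 with the pattern most like that of Hspe1, by the Euclidean distance of centred log2 values over the 4 arrays, were those of Entpd1, Fxyd1 and Bclaf1, at 0.07, 0.14 and 0.18. Entpd1 (rc_AI104500_at) read 1749 at 90 min and 6518 at 0 min in Rat1-Omomer cells, against 4950 at 90 min and 5532 at 0 min in Rat1-control cells. Of the 3, the probe sets of Fxyd1 and Bclaf1 belong to the 5 EST series, and those of Entpd1 and Hspe1 do not. Myc itself, on which Omomyc acts, read 7233 at 90 min and 2307 at 0 min in Rat1-Omomer cells, against 4980 at 90 min and 1172 at 0 min in Rat1-control cells on Y00396mRNA_g_at. Its other probe set, Y00396mRNA_at, read 159 at 90 min and 534 at 0 min in Rat1-Omomer cells, against 1171 at 90 min and 222 at 0 min in Rat1-control cells, above the floor on the Rat1-control 90 min array alone.

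Of 45 other listed chaperone genes of the cytosol, 20 had a probe set of their own, which leaves out Hspa1a and Hspa1b. Of their 25 probe sets with a fold in Rat1-Omomer cells at 90 min over Rat1-control cells at 0 min, 4 passed 2-fold upward (10.1% of all) and 2 downward (18.2% of all), and the median log2 fold was 0.15. In Rat1-control cells at 90 min over 0 min, 0 of 24 passed 2-fold either way (5.45% of all upward and 7.23% downward), with a median of 0.21. The highest was Cryab, a small heat shock protein of muscle and lens, which read 3938 at 90 min and 2167 at 0 min in Rat1-Omomer cells, against 2122 at 90 min and 1123 at 0 min in Rat1-control cells. The lowest above the floor were Bag6, a holdase for membrane proteins, 1.44-fold lower for Rat1-Omomer cells, and Cryaa, a lens crystallin, 1.42-fold lower for Rat1-control cells. In Rat1-Omomer cells these genes lay nearer to the median of all probe sets, 0.10, than the members did at 0.84. The groups were not matched for brightness, and 12 member probe sets had a mean of at least 10000, where the median was 0.44. With quantile normalization, Hsp90ab1 lay between -0.11 and 0.16 in the same comparison. The gap between the groups may therefore reflect the stretched bright end of that array, which was not tested.

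Of the TRiC chaperonin, which folds actin and tubulin, and prefoldin, which hands it clients, 3 of 14 genes had a probe set of their own. Cct3 read 908 at 90 min and 8792 at 0 min in Rat1-Omomer cells, against 10520 at 90 min and 7063 at 0 min in Rat1-control cells. Pfdn2 read 267 at 90 min and 2452 at 0 min in Rat1-Omomer cells, against 2150 at 90 min and 2202 at 0 min in Rat1-control cells. Both were under the floor on the Rat1-Omomer 90 min array alone, while Cct6a was 1.68-fold higher there than in Rat1-control cells at 0 min. All 3 probe sets belong to the 5 EST series, whose part in these readings was not tested.

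Among the other mitochondrial chaperone, import and protease genes, 9 of 25 had a probe set of their own. Of their 9 probe sets with a fold, 0 passed 2-fold in either line at 90 min over Rat1-control cells at 0 min (10.1% of all upward and 18.2% downward for Rat1-Omomer cells, 5.45% and 7.23% for Rat1-control cells). Their median log2 fold was 0.69 for the Rat1-Omomer and 0.31 for the Rat1-control 90 min array. The highest in Rat1-Omomer cells was Tomm20, a receptor of the import pore, at 1.97-fold, and in Rat1-control cells Ppif, the matrix cyclophilin, at 1.88-fold. The lowest above the floor were Pmpcb, part of the peptidase that trims imported proteins, at 1.17-fold lower in Rat1-Omomer cells, and Trap1, the mitochondrial HSP90, at 1.77-fold lower in Rat1-control cells. On its other probe set Pmpcb was 1.06-fold higher in Rat1-Omomer cells. Trap1 read 573 at 90 min, under the floor, and 3147 at 0 min in Rat1-Omomer cells, against 1078 at 90 min and 1905 at 0 min in Rat1-control cells. Within Rat1-Omomer cells its log2 fold, 90 min over 0 min, was thus -1.59, a bound, and it was the only one of the 9 probe sets to pass 2-fold there (9.19% of all passed it upward and 17.5% downward).

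Of the heat shock factors and other stress genes, 5 of 12 had a probe set of their own. Over Rat1-control cells at 0 min, 3 of 6 probe sets passed 2-fold upward in the Rat1-Omomer 90 min sample and 5 of 7 in the Rat1-control 90 min sample. The same was passed by 10.1% and 5.45% of all probe sets, and 0 of the list passed 2-fold downward in either sample (18.2% and 7.23% of all). The upward readings came from few genes. In Rat1-control cells they were of Hsf1 (2.07-fold, 2.53-fold and a bound of 2.12-fold), Hmox1 (2.60-fold) and Ddit3 (2.07-fold). In Rat1-Omomer cells they were of Hsf1 (2.09-fold), Hmox1 (2.66-fold) and Ddit3 (2.61-fold), and another Hsf1 probe set was 1.21-fold higher. Hmox1, the heme oxygenase that many stresses induce, was read by 2 probe sets that differed. On J02722cds_at it read 8609 at 90 min and 2982 at 0 min in Rat1-Omomer cells, against 8406 at 90 min and 3232 at 0 min in Rat1-control cells. On rc_AI179610_at it read 7834 at 90 min and 6804 at 0 min in Rat1-Omomer cells, against 14631 at 90 min and 8762 at 0 min in Rat1-control cells. At 90 min the lines were thus nearly the same on the first, whereas Rat1-Omomer cells were 1.87-fold lower on the second. Atf3, an activating transcription factor of the stress response, gave 1.28-fold lower in the Rat1-Omomer and 1.27-fold lower in the Rat1-control 90 min sample.

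Of the chaperones of the endoplasmic reticulum, which answer to a different stress pathway, 11 of 14 genes had a probe set of their own. Over Rat1-control cells at 0 min, 5 of 22 probe sets passed 2-fold upward in the Rat1-Omomer 90 min sample and 7 of 23 in the Rat1-control 90 min sample, with medians of 0.46 and 0.58 on the log2 scale. The shares over all probe sets were 10.1% and 5.45%. Downward, 2 of 22 and 0 of 23 passed 2-fold, against 18.2% and 7.23% of all. Hspa5, the HSP70 of that compartment, read 60140 at 90 min and 24190 at 0 min in Rat1-Omomer cells, against 64018 at 90 min and 19593 at 0 min in Rat1-control cells on M14050_s_at. On its dimmer S63521_i_at it read 7469 at 90 min and 4613 at 0 min in Rat1-Omomer cells, against 19551 at 90 min and 4071 at 0 min in Rat1-control cells. Hspa5 was higher at 90 min in both lines. Pdia6, a disulfide isomerase, was the lowest in Rat1-control cells, at 1.16-fold lower. Calr, a lectin chaperone, was the lowest in Rat1-Omomer cells on X53363cds_s_at, which read 6060 at 90 min and 14249 at 0 min in Rat1-Omomer cells, against 20172 at 90 min and 14711 at 0 min in Rat1-control cells. Its 2 brighter probe sets went the other way. On D78308_at the readings were 42559 at 90 min and 22508 at 0 min in Rat1-Omomer cells, against 36767 at 90 min and 30951 at 0 min in Rat1-control cells. On D78308_g_at they were 24107 at 90 min and 14844 at 0 min in Rat1-Omomer cells, against 21704 at 90 min and 17469 at 0 min in Rat1-control cells. The readings of Calr therefore have no common direction in Rat1-Omomer over Rat1-control cells at 90 min.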

How the data were processed

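Total RNA of Rat1-Omomer and Rat1-control cells at 0 and 90 min after serum addition was hybridized to 4 Affymetrix RG-U34A arrays, 1 per condition. The intensity values that the authors deposited are average differences computed with MAS 4 at default settings, linear, with readings under 0 retained, and brought by them to near the same mean on each array. All 4 columns were used and 0 were left out. The 59 control probe sets of 8799 were set aside, and gene symbols came from the platform annotation, where 7006 of the remaining 8740 probe sets have 1 symbol, 308 several and 1426 none.

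The noise SD, 1.4826 times the median absolute negative value, was 524, and values under 2 SDs (1048) were set to 1048 before ratios were taken. Probe sets under it on both arrays have no fold. At least 3-fold, the threshold of the study's methods, was counted as a difference, with 2-fold beside it. The ratio is not the Fold Change of MAS 4 with its robust analysis rules. With 1 array per condition no test, SD between cultures or paired fit could be had. Each fold is only as precise as 1 array per condition allows.

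The members and gene lists were chosen with earlier results of these data known. Every member is named. Of each other list, the highest and the lowest fold without a bound are named for either line at 90 min over Rat1-control cells at 0 min, and the 3 patterns nearest to the member with the widest range among those above the floor on all 4 arrays. Hspa1a and Hspa1b were added after their values were seen, and Hsf1 and Ddit3 of the stress gene list were named after theirs were. Promoter windows and gene positions are those of RefSeq (GRCr8). Alternatives tried were floors of 524 and 2096, each array's own floor (added after the data were seen), scaling to a common median, quantile normalization, leaving out bounds, the brightest probe set per gene, and probe sets outside the 5 EST series. Python 3.11.15 was used with numpy 2.4.6 and pandas 2.3.3.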

Additional observations from a re-analysis of the deposited data

Results flagged for a closer look

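On 4 members the change over time had opposite signs in the lines and was larger than the noise SD of 524 in both. The difference was not tested, since each condition has 1 array. The same count over all probe sets was not made, so that the 4 cannot be set against a share. The noise SD is that of a single reading, and a difference between readings varies more. The Dnaja1 change of 561 in Rat1-control cells is hardly above it. The readings of Hsph1 rc_AI236601_at changed by -1924 in Rat1-Omomer cells and by 4610 in Rat1-control cells (90 min minus 0 min). Those of Dnaja1 rc_AA800551_at changed by -3848 in Rat1-Omomer cells and by 561 in Rat1-control cells. Those of Hsp90ab1 rc_AI008074_s_at changed by 6462 in Rat1-Omomer cells and by -3846 in Rat1-control cells. Those of Hspb1 rc_AA998683_at changed by 4088 in Rat1-Omomer cells and by -5992 in Rat1-control cells. For Dnaja1, Hsp90ab1 and Hspb1 the other probe sets of the gene did not show opposite signs. The probe set L16764_s_at, shared by Hspa1a and Hspa1b and so outside the members, was 2.793-fold higher in Rat1-Omomer than in Rat1-control cells at 90 min.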

How the results depend on the processing

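No paired analysis was possible because each condition has 1 array and the labels give no replicate numbers. Of the probe sets past 2-fold as deposited, 0 changed direction under another floor or scaling. Another floor cannot reverse such a fold, and median scaling shifts the folds of a comparison nearly alike. Quantile normalization was thus the alternative that could readily have done so. Single probe sets in Rat1-Omomer cells at 90 min over 0 min were not part of this check. They were rescaled apart from it, by median scaling and quantile normalization, as given for Hsph1. Of 428 values of single probe sets and lists, 421 moved by less than the within-gene SD. That SD was 0.73 to 0.75 in comparisons with the Rat1-Omomer 90 min array, so that large shifts count as unmoved. The fall of Hsp90ab1 from between 0.32 and 0.87 to between -0.11 and 0.16 with quantile normalization was among them. The 421 is thus no measure of how stable the folds were. Counts of members past 3-fold or 2-fold are small and moved. Smaller changes of these counts are not listed. Apart from the probe sets outside the 5 EST series, the share over all probe sets was not computed under these settings. In Rat1-Omomer cells at 90 min over Rat1-control cells at 0 min, a floor of 2096 left 1 at least 3-fold higher and 1 lower. Median scaling, the arrays' own floors or readings above the floor on both arrays left 1 lower. With quantile normalization Hspb1, at most 0.73 on the log2 scale, and the lower fold of Hspd1, at 0.74, no longer passed 2-fold upward. The probe sets outside the 5 EST series gave 1 higher and 1 lower, against 3.38% and 4.36% of all such probe sets. The brightest probe set of each gene gave 0 and 0 at 3-fold, and 3 higher and 1 lower at 2-fold, among 8. In Rat1-control cells at 90 min over 0 min, the floor of 2096 left 0 at least 3-fold higher, and the brightest probe sets gave 0 at 3-fold higher, 0 at 2-fold higher and 0 at 2-fold lower. At 0 min, Rat1-Omomer over Rat1-control cells, the floor of 2096 left 0 at 3-fold higher, the brightest probe sets gave 0 at 3-fold and 0 at 2-fold higher, and quantile normalization gave 1 at 2-fold lower. At 90 min, Rat1-Omomer over Rat1-control cells, a floor of 2096 or readings above the floor on both arrays left 0 at 3-fold lower. The brightest probe sets gave 0 higher and 0 lower at 3-fold, and 1 higher and 2 lower at 2-fold. Those outside the 5 EST series gave 0 higher and 0 lower at 3-fold, against 2.57% and 3.3% of all such probe sets. At 2-fold they gave 1 higher, against 11.7%. Within Rat1-Omomer cells, 90 min over 0 min, median scaling gave 5 at 2-fold higher. The brightest probe sets there gave 0 higher and 1 lower at 3-fold and 0 higher and 1 lower at 2-fold. Those outside the 5 EST series gave 0 higher at 3-fold (3.55% of all such probe sets) and 1 at 2-fold (11.2%). The 3-unit form of the heat shock motif was in 5 promoter windows, against 8 with the pair. Taking the brightest probe sets left 8 in place of 20, so that lower counts are not by themselves a change in share. For Rat1-Omomer cells at 90 min over Rat1-control cells at 0 min, no 3-fold reading was on the brightest probe set of its gene. Dnajb1, Hspa9, Hspe1 and Dnaja1 each had a brighter probe set under 3-fold there. The cause of the other changes was not tested. Signal near the floor limits Hsph1 AA108277_at and the bounds of Dnaja1.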
